A study of Homo sapiens and Mus musculus with 14 samples.

Results

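Semaphorins, plexins, ephrins and Eph receptors are families of cell guidance genes, and their loci were described here in chromatin accessibility peaks of the human breast adenocarcinoma line MDA-MB-436. All protein-coding genes whose symbol starts with SEMA, PLXN, EFNA, EFNB, EPHA or EPHB and continues with a class number were taken, which gave 52 of 19974 protein-coding genes on chromosomes 1 to 22 and X. They were 20 semaphorins, 9 plexins, 9 ephrins (with the read-through gene EFNA4-EFNA3) and 14 Eph receptors. A locus was the gene body with 10 kb on each side, and the 52 loci together spanned 8.42 Mb. They held 230 of 64806 peaks in control cells, 139 of 39537 in SMARCAL1 knockout clone 1 and 132 of 34572 in SMARCAL1 knockout clone 2.

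Semaphorins are secreted or membrane-bound ligands that signal through plexin receptors, with neuropilins as co-receptors for the secreted class 3 members, and they steer growing axons, blood vessels and migrating cells. Ephrins are membrane-bound ligands of the Eph receptor tyrosine kinases. A-type ephrins are held by a lipid anchor and B-type ephrins span the membrane, so both signal where cells touch, and several Eph and semaphorin genes are studied in breast cancer for their roles in invasion.

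The assay was ATAC-seq, in which a transposase cuts and tags accessible DNA, so that a peak marks an open region. SMARCAL1 is an annealing helicase that remodels stalled replication forks, and the study compared cells with and without it. The control was 3 MDA-MB-436 samples of batch 1, knockout clone 1 was 3 samples of batch 1, and knockout clone 2 was 2 samples of batch 2. The deposited peak lists merge the samples of a group into 1 list, so no spread between samples could be computed, no test was made, and every comparison is between 3 lists. Each knockout group is 1 clone. In clone 1 the loss of SMARCAL1 and other differences of that clone cannot be told apart, and in clone 2 neither can be told apart from the batch. A peak list does not show the edit in SMARCAL1, so the knockout was not checked here.

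Each peak carries the authors' score, read here as the -log10 of the peak caller's p-value, with a lowest value of 5.00 in the control list. The median score was 6.26 in the control list, 6.07 in clone 1 and 11.0 in clone 2, and the median peak width was 399, 453 and 200 bp, so scores are not compared between lists. Read depth is not given in the sources used here. Intervals below are exact (Clopper-Pearson) 95% binomial intervals that cover counting error over peaks or genes, not the spread between samples. As a check of the labelled cell type, all 5 mesenchymal markers (VIM, CD44, AXL, ZEB1, FN1) and 4 of 7 breast epithelial markers had a control peak within 1000 bp of a start site. These shares stand beside 62.5% of all protein-coding genes. EPCAM was among the 4, and KRT5 and KRT14 had no start-site peak in any list. The counts were 1 of 5 for leukocyte, 1 of 4 for melanocyte, 1 of 3 for endothelial and 3 of 4 for neuronal markers. Of the 4 breast epithelial markers, 3 (KRT8 and KRT18, which share a peak, and KRT17) had no start-site peak in either clone. Their control scores were 5.76, 5.76 and 5.51, and of all genes scoring 5 to 6, 55.9% had none in either clone. CDH1, another of the 7, went the other way, with none in the control list and a peak of 6.24 in clone 1 alone. Of the 5 mesenchymal markers 3 had none in clone 2 (all genes 28.5%). These were CD44, AXL and ZEB1, with low control scores of 5.27, 5.69 and 5.05. Of all genes scoring 5 to 6, 10.3% had a start-site peak in both clones. The part of such marker changes in the values below was not tested.

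The promoters of 5 members show the kinds of outcome described below. The 250 bases upstream of the annotated 5′ end are printed 5′ to 3′ on the gene's strand (RefSeq, GRCh38.p14). Capitals mark GC boxes, the letters GGGCGG or their reverse complement CCGCCC, which Sp-family factors bind. EPHA7 (chr6:93419560-93419809, minus strand) and EFNB2 (chr13:106535663-106535912, minus strand) had a start-site peak in all 3 lists. EPHB2 (chr1:22710588-22710837, plus strand) had one in the control list and in neither clone. PLXNA1 (chr3:126982865-126983114, plus strand) had one in both clones and not in the control list. EPHA1 (chr7:143408857-143409106, minus strand) had none in any list.
EPHA7: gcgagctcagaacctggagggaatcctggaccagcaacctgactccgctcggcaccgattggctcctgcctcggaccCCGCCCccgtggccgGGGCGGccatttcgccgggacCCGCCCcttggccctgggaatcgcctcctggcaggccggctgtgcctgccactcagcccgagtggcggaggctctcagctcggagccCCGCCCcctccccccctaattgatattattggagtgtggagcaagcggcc
EFNB2: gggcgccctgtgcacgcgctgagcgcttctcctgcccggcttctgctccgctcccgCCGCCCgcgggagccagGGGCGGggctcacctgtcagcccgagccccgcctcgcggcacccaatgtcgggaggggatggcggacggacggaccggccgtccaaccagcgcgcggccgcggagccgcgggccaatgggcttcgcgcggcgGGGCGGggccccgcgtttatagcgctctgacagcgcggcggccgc
EPHB2: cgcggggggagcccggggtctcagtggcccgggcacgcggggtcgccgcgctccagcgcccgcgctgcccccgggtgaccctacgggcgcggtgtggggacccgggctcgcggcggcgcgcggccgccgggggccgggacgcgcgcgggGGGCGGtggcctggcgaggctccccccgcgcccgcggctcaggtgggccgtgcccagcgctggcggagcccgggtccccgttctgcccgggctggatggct
PLXNA1: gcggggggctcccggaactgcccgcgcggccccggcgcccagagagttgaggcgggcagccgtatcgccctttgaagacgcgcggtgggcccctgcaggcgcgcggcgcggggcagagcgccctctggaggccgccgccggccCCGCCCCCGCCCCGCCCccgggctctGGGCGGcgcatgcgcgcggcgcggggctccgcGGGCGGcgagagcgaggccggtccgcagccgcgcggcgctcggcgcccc
EPHA1: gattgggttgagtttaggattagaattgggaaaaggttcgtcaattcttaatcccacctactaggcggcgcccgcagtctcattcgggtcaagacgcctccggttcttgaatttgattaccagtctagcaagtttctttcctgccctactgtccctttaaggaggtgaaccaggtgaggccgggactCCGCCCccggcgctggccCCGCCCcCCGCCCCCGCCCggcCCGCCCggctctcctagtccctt
The EPHA7 stretch holds 4 GC boxes and 19 CpG dinucleotides, EFNB2 holds 3 and 40, EPHB2 1 and 42, PLXNA1 5 and 46, and EPHA1 5 and 17. The EPHA1 promoter, with no peak in any list, thus holds as many GC boxes as the PLXNA1 promoter. The stretches of EPHA7 and EFNB2 lie wholly within peaks of all 3 lists. At EPHB2, 209 bases of its 300 bp window (250 bases before to 50 after the start) lay in the control peak. At PLXNA1, 230 bases of the window lay in the clone 1 peak, and the clone 2 peak (chr3:126982635-126982810) ended upstream of it.

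A member was counted as having a start-site peak where a peak lay within 1000 bp of any of its listed start sites. For EPHA10, EFNB3, SEMA3A, SEMA6A and SEMA6B, which have no entry in the promoter table and no strand, either gene end was used. In the control list 33 members had a start-site peak (63.5%, interval 49.0 to 76.4), where 62.5% of all protein-coding genes had one. In clone 1 the count was 24 (46.2%, interval 32.2 to 60.5; all genes 52.0%), and in clone 2 it was 22 (42.3%, interval 28.7 to 56.8; all genes 45.2%). Each share lay close to that over all genes.

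Of the 33 members with a control start-site peak, 18 had one in both clones (54.5%, interval 36.4 to 71.9; all genes 66.2%). The peak was not listed in clone 1 for 11 members (33.3%, interval 18.0 to 51.8; all genes 20.3%) and not in clone 2 for 12 (36.4%, interval 20.4 to 54.9; all genes 28.5%). It was listed in neither clone for 8 (24.2%, interval 11.1 to 42.3; all genes 15.0%). The values for all genes lay within each of these 4 intervals.

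How often a start-site peak was listed in both clones went with the score of the control peak. All 12 members whose control start-site score was 12 or more had a start-site peak in both clones (all genes 98.7%). Of the 6 members scoring 8 to 12, 3 did and 2 had none in either clone, where 81.7% of 3522 genes had one in both and 3.61% in neither. These 2 were EFNA5 and EPHB2, both described below. Of the 9 members scoring 5 to 6, both clones listed a start-site peak for 0, and neither clone did for 4. The shares over 1880 genes in that range were 10.3% and 55.9%.

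**Figure D1:**
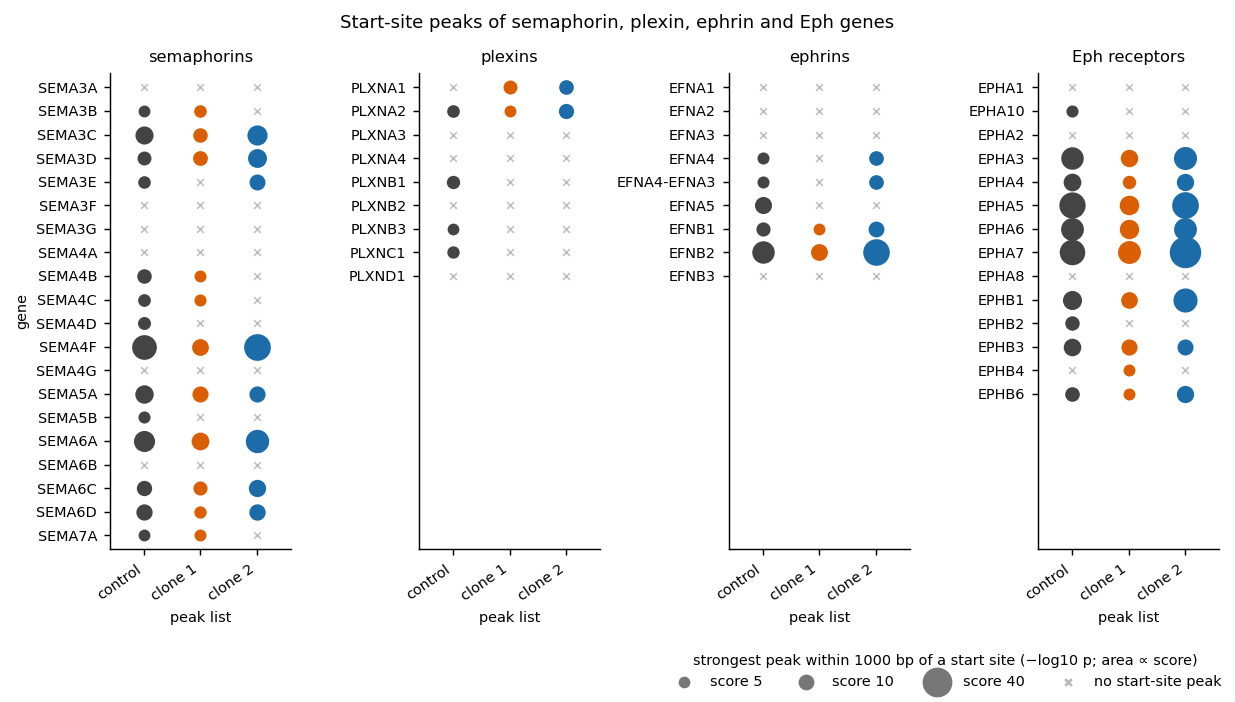
Strongest peak within 1000 bp of a start site for each of the 52 members (rows, by family) in the control, clone 1 and clone 2 lists (columns), with circle area proportional to the score (-log10 p) and a cross where no peak is listed. Large control circles, such as those of EPHA5 (30.6), EPHA7 (28.7) and SEMA4F (26.8), have circles in both clones, and 17 members have crosses in all 3 columns; circle sizes are not comparable between columns.

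Eph receptors held the highest start-site peaks of the members. EPHA5, a receptor of A-type ephrins, had a start-site peak of 30.6 in the control list, 16.1 in clone 1 and 31.7 in clone 2. EPHA7 had 28.7, 22.7 and 44.9 in the same order. Both peaks span the annotated 5′ end of their gene, at chr4:65669860-65670984 and chr6:93418209-93420092 in the control list. EPHA6 (22.5, 15.8 and 22.5) and EPHA3 (21.9, 12.5 and 23.1) were next among Eph receptors. EPHB1, a receptor of B-type ephrins, had 15.3, 11.3 and 25.5. These 5 receptors had a peak at the start site in every list, with control scores well above the control median of 6.26.

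EPHA4 (13.0, 6.88 and 12.3), EPHB3 (12.7, 10.5 and 10.4) and EPHB6 (8.39, 5.21 and 12.2) also had a start-site peak in all 3 lists. EPHB6 lacks kinase activity and signals through other receptors. The EPHA4 peak lay 1.71 kb downstream of the annotated 5′ end, at another listed start site. So 8 of the 10 Eph receptors with a control start-site peak had one in both clones. The other 2, EPHB2 and EPHA10, had one in neither.

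EPHB2, a receptor of B-type ephrins, had 4 control peaks, and none of them was overlapped by a peak of either clone. Its 2 start-site peaks scored 5.11 (chr1:22710278-22710796) and 8.13 (chr1:22711174-22711386), and its 2 gene-body peaks scored 5.27 and 5.07. Clone 1 listed 3 other peaks in the gene body (5.06, 5.49 and 5.75), and clone 2 listed no peak in the locus. The EPHB2 locus thus had no peak in common between the control list and either clone. EPHA10, a receptor without kinase activity, had a control peak of 5.42 at one of its gene ends that neither clone list held. Its gene-body peak of 8.25 was found in clone 2 (7.88) and not in clone 1.

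EPHA1, EPHA2 and EPHA8 had no start-site peak in any list. EPHB4 had one in clone 1 alone (5.27), which also lay at a start site of SLC12A9. EPHB4 is the venous partner of the arterial ligand EFNB2. EPHA2, a receptor often abundant in basal-type breast cancers, had a control gene-body peak of 10.6 at chr1:16146407-16146624, 9.55 kb downstream of its 5′ end. It was the highest-scoring member peak absent in both clones, and the locus held no peak in either clone list. The highest peak of the EPHA1 locus (15.1, 10.5 and 17.4) lay at the start site of FAM131B and ZYX, neighbouring genes.

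Among ephrins, EFNB2 had a start-site peak of 21.8 in the control list, 11.6 in clone 1 and 31.4 in clone 2. EFNB1 had 7.84, 5.12 and 10.1. These 2 B-type ephrins thus had a start-site peak in every list, and all control peaks of their loci were found in both clones. EFNA5, an A-type ephrin, had a control start-site peak of 11.9 at chr5:107671451-107673052 and a second of 5.26. The first was overlapped by a clone 1 peak of 10.7 and a clone 2 peak of 12.9, whose nearest bases lay more than 1000 bp from the start site. EFNA5 is therefore one of the 8 members without a start-site peak in either clone by the distance rule, and its main upstream peak was listed in all 3 groups. Counting such overlaps left 7 members.

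EFNA4 and the read-through EFNA4-EFNA3 share a start site, with a peak of 5.38 in the control list, none in clone 1 and 8.47 in clone 2. EFNA1, EFNA2, EFNA3 and EFNB3 had no start-site peak in any list. The highest peaks of the EFNA1 locus (10.1, 5.43 and 9.74) lay at the start site of SLC50A1. Those of the EFNB3 (8.62) and EFNA2 (7.33) loci in the control list lay at the start sites of DNAH2 and FAM174C. Over all 52 loci, 14 control peaks lay at the start site of another gene and of no member, so they cannot be assigned to a member.

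Among semaphorins, 14 of 20 had a control start-site peak and 7 had one in all 3 lists. SEMA4F, a membrane-bound semaphorin, had the highest, at 26.8, 11.5 and 31.8 in the control, clone 1 and clone 2 lists. SEMA6A had 19.0, 13.0 and 23.7. SEMA5A, which carries thrombospondin repeats, had 14.1, 10.4 and 10.5. The other 4 were SEMA3C (13.6, 8.23 and 17.2), SEMA6D (10.7, 5.69 and 10.8), SEMA6C (9.35, 7.72 and 12.3) and SEMA3D (7.53, 8.63 and 14.9). SEMA3C and SEMA3D are secreted, and the rest are membrane-bound.

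SEMA4D and SEMA5B had a control start-site peak and none in either clone. SEMA4D, the ligand of plexin-B1, had 2 start-site peaks of 6.38 and 6.30 and 2 gene-body peaks of 5.82 and 5.26, and all 4 were absent in both clones. Clone 1 listed 1 peak elsewhere in that locus (5.51). SEMA5B had a start-site peak of 5.44 and a gene-body peak of 9.57 (chr3:122952526-122952757) that were absent in both clones. Its start-site score was thus low, and the higher of the absent peaks lay 76.0 kb inside the gene.

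SEMA3B (5.19 and 5.94), SEMA4B (8.29 and 5.22), SEMA4C (6.10 and 5.44) and SEMA7A (5.15 and 5.27) had a start-site peak in the control and clone 1 lists and none in clone 2. The SEMA4C peaks also lay at a start site of LOC124908044. SEMA7A is a lipid-anchored semaphorin that binds plexin-C1 and integrins. At SEMA4B the control peak of 8.29 (chr15:90184268-90185576) spanned the annotated 5′ end and was overlapped in neither clone. The clone 1 peaks of SEMA4B lay at other listed start sites. SEMA3E, the ligand of plexin-D1, showed the other pattern, with 5.94 in the control list, none in clone 1 and 10.3 in clone 2. In SEMA3E the control and clone 2 peaks lay at separate places within the start-site windows and did not overlap. SEMA3A, SEMA3F, SEMA3G, SEMA4A, SEMA4G and SEMA6B had no start-site peak in any list.

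Among the 9 plexins, PLXNA2 alone had a start-site peak in all 3 lists, with 6.04 in the control list, 5.20 in clone 1 and 9.21 in clone 2. The clone peaks of PLXNA2 overlapped different control peaks at that start site and not each other. PLXNB1, PLXNB3 and PLXNC1 had one in the control list and in neither clone. PLXNB1, the SEMA4D receptor, had a single start-site peak of 6.83 at chr3:48429546-48429920. PLXNC1, the SEMA7A receptor, had 3 of 5.71, 5.73 and 5.01, and PLXNB3 had 1 of 5.06. Of these 5 peaks the PLXNB1 peak alone scored above the control median of 6.26.

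PLXNA1, a receptor for class 3 and class 6 semaphorins, had no control peak in its locus, a start-site peak of 7.53 in clone 1 (chr3:126982542-126983094) and of 8.43 in clone 2. It was the single member with a start-site peak in both clones and none in the control list, where 0.601% of the 7486 genes without a control start-site peak had one in both clones. With lists of equal length that background was 2.36% of 9485 genes, and PLXNA1 was again the single member. The clone 1 score was above the clone 1 median of 6.07, and the clone 2 score was below the clone 2 median of 11.0. PLXNA3, PLXNA4, PLXNB2 and PLXND1 had no start-site peak in any list. Outside the window, PLXNA4 had a peak 2.06 kb upstream of its 5′ end that all 3 lists held (12.9, 7.21 and 9.55). The highest control peak of the PLXNA3 locus (10.7) lay at the start site of its neighbour LAGE3. PLXND1, SEMA3F and SEMA4G had no peak in any list anywhere in their loci.

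Over whole loci, 45 members had a control peak, with a median of 2 and a maximum of 29 per gene over all 52. Long genes held most of the peaks: 13 members of at least 200 kb held 150 of the 230 control peaks (65.2%), and 28 members under 50 kb held 43 (18.7%). The control list held 27.3 peaks per Mb of member loci and 26.2 per Mb of all protein-coding loci. The values were 16.5 and 16.5 in clone 1, and 15.7 and 14.6 in clone 2. By place, 46 control peaks (20.0%) lay at a member's start site, 14 at another gene's, 157 (68.3%) elsewhere in a gene body and 13 in a flank. Exons and introns were not told apart.

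Of the 230 control peaks, 133 were absent in clone 1 (57.8%, interval 51.2 to 64.3), where 57.9% of all control peaks were absent. In clone 2, 126 were absent (54.8%, interval 48.1 to 61.3; all peaks 57.1%). Both clones lacked 104 (45.2%, interval 38.7 to 51.9; all peaks 46.7%), and both held 75 (32.6%, interval 26.6 to 39.1; all peaks 31.7%). Absent means that no base of the control peak was overlapped by a peak of that list. The 4 shares lay near those over all peaks. At member start sites 14 of 46 were absent in both (30.4%, interval 17.7 to 45.8; all start-site peaks 21.0%), and away from all start sites 86 of 170 were (50.6%, interval 42.8 to 58.3; all such peaks 53.0%). Some scores carry more digits than a single call and were read as means over calls. Of the 89 member control peaks with such a score, 29 were absent in clone 1 (32.6%, all such peaks 35.5%). Clone 2 lacked 24 (27.0%, all such peaks 33.6%), and both lacked 14 (15.7%, all such peaks 21.2%). The absent start-site peaks of EPHB2, PLXNB1, PLXNC1 and PLXNB3 had no such score, and those of EPHA10 and SEMA5B had one. At SEMA4D the absent peak of 6.38 had one and that of 6.30 had none, and the absent EFNA5 peak of 5.26 had none. The control start-site peaks of EPHA5 (30.6) and SEMA4F (26.8), found in both clones, had none either. A mean can also carry few digits, so a peak without such a score need not be a single call.

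**Figure D2:**
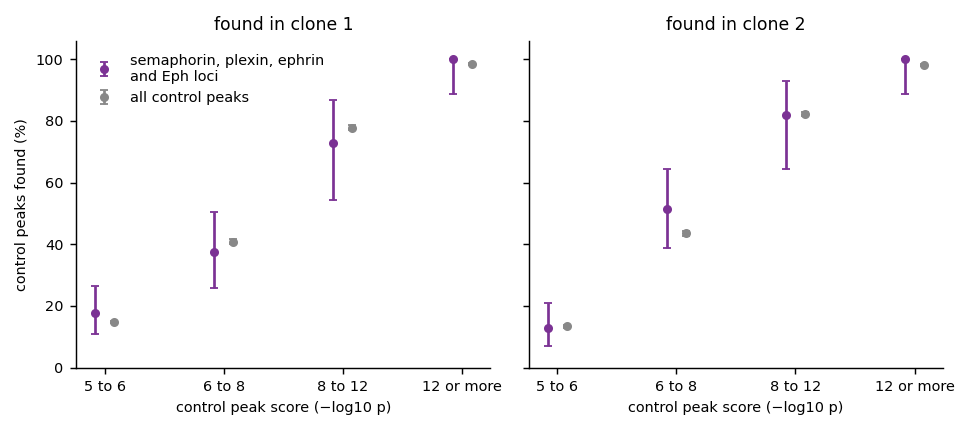
Share of control peaks found in clone 1 (left) and clone 2 (right), in percent, by control peak score (-log10 p), for the 230 peaks of member loci (purple) and all 64806 control peaks (grey); bars are exact 95% binomial intervals. The purple points climb with the score to 100% at 12 or more and their intervals hold the grey points in every score range.

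The share of member peaks found in a clone was higher at higher control scores, as in the whole list. Of 102 member peaks scoring 5 to 6, 18 were found in clone 1 (17.6%; all peaks 14.8%) and 13 in clone 2 (12.7%; all peaks 13.3%). Of 31 scoring 12 or more, all 31 were found in each clone (all peaks 98.4% and 98.3%). In the range of 8 to 12, 5 of 33 were absent in both (15.2%, interval 5.11 to 31.9; all peaks 8.65%). Those 5 lay at EPHA2 (10.6), SEMA5B (9.57), SEMA5A (8.63), SEMA4B (8.29) and EPHB2 (8.13). Given the score range and the place of each peak, the whole list would give 73.9 member peaks found in both clones, and 75 were.

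By family, peaks absent in both clones were 37 of 90 at semaphorins (41.1%, interval 30.8 to 52.0), 18 of 33 at plexins (54.5%, interval 36.4 to 71.9), 5 of 26 at ephrins (19.2%, interval 6.55 to 39.4) and 44 of 81 at Eph receptors (54.3%, interval 42.9 to 65.4). The ephrin interval lay below the 46.7% of all peaks, and the others held it. EFNA5 alone gave 16 of the 26 ephrin peaks. Without EFNA5 and the read-through EFNA4-EFNA3 the ephrin count was 3 of 10 (30.0%). Every peak of the read-through is also a peak of EFNA4 or EFNA3, so only the EFNA5 peaks were left out. Given score range and place, 11.2 ephrin peaks would be found in both clones, and 14 were. For Eph receptors the values were 23.6 and 20.

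**Figure D3:**
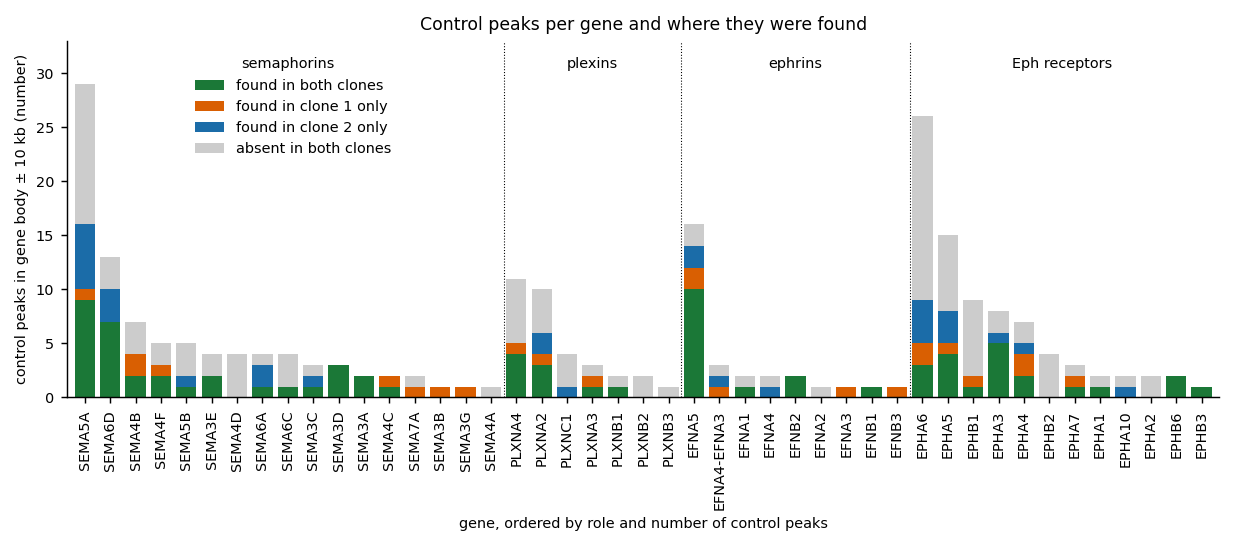
Number of control peaks in the gene body with 10 kb on each side, for the 45 members with at least 1, grouped by family and ordered by number; colours divide each bar into peaks found in both clones, in clone 1 alone, in clone 2 alone and in neither. The bars of SEMA5A (29) and EPHA6 (26) are the tallest, and most of the EFNA5 bar (10 of 16) was found in both clones.

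The 5 members with the most control peaks were SEMA5A with 29, EPHA6 with 26, EFNA5 with 16, EPHA5 with 15 and SEMA6D with 13, together 99 of 230 (43.0%). They differed in how many peaks both clones held. Among the 9 members with at least 8 control peaks, EFNA5 (10 of 16) and EPHA3 (5 of 8) had the highest share found in both clones, 62.5% each, and SEMA6D was next with 7 of 13 (53.8%). EPHB1 (1 of 9, 11.1%), EPHA6 (3 of 26, 11.5%) and EPHA5 (4 of 15, 26.7%) had the lowest. These shares rest on few peaks each.

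EPHA3 showed a run of high peaks kept along the gene. Its start site (21.9) and peaks 6.95, 38.6, 207 and 273 kb downstream (17.5, 20.5, 10.3 and 14.4) were found in both clones. A peak 8.50 kb upstream (6.24) was found in clone 2 alone, and 2 gene-body peaks of 5.62 and 5.15 were absent in both. The 5 kept peaks were the 5 highest of the locus.

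EPHB1 had 9 peaks in the control list, 9 in clone 1 and 1 in clone 2. The start-site peak was the single one common to all. The other 8 control peaks scored between 5.04 and 6.53, and 7 of them were absent in both clones. Of the clone 1 peaks, 7 lay where the control list had none, with scores between 5.01 and 6.35. The lists thus shared the start site of EPHB1 and differed at nearly every low peak in its gene body.

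In EPHA6 the start-site peak (22.5), a gene-body peak and the peak at the start site of ARL6 beyond the gene's end (30.3, 19.1 and 28.9) were found in both clones. The other 23 control peaks were absent in at least 1 clone, and 17 were absent in both. SEMA5A held the highest gene-body peak of any member, at chr5:9059608-9060536, 486 kb from its 5′ end, with 28.3 in the control list, 28.4 in clone 1 and 45.4 in clone 2. SEMA5A kept 9 of 29 peaks in both clones, and 13 were absent in both. In EFNA5 the highest peak (19.1, 9.35 and 19.5) also lay far inside the gene, 290 kb from the start.

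**Figure D4:**
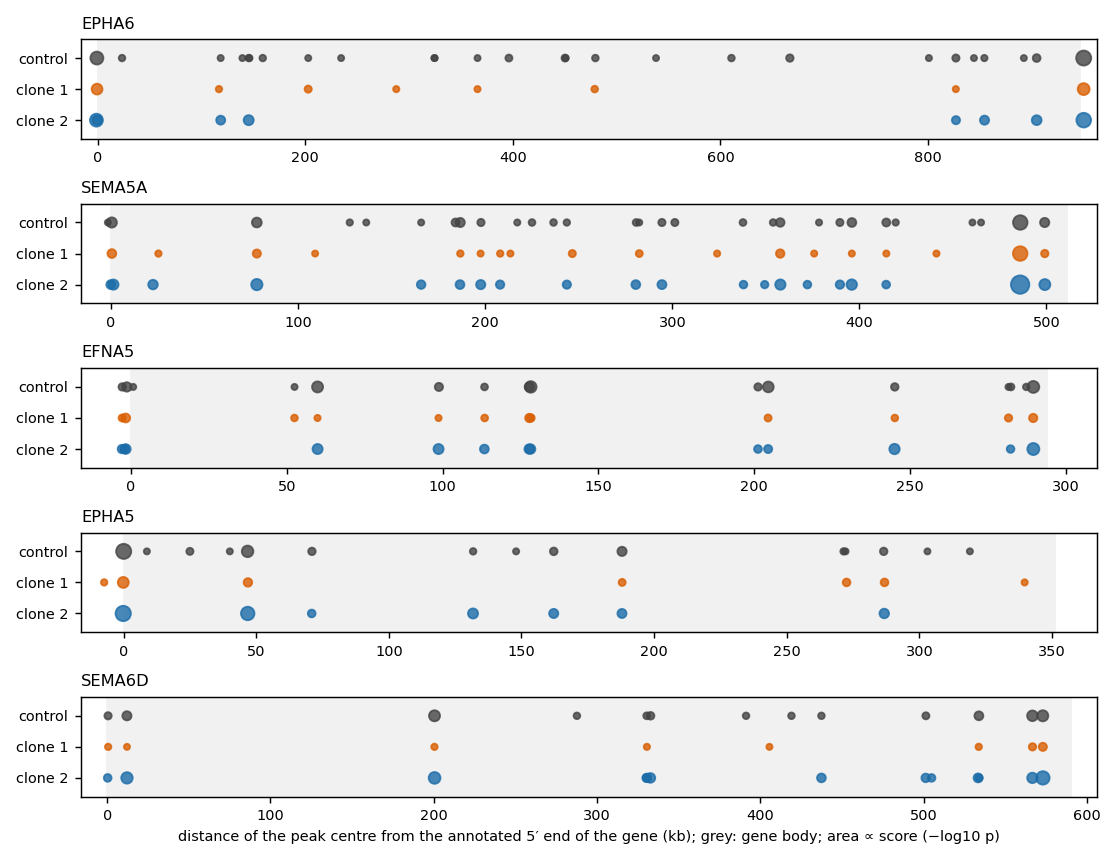
Peaks of the control, clone 1 and clone 2 lists along the 5 members with the most control peaks, by distance of the peak centre from the annotated 5′ end (kb); grey marks the gene body and circle area is proportional to the score (-log10 p). Peaks with large control circles recur in all 3 rows, as at the start of EPHA5 and near 486 kb in SEMA5A, and the 17 EPHA6 peaks absent in both clones have small circles.

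The strongest control peak of a locus was found in both clones for 28 of the 45 members (62.2%, interval 46.5 to 76.2; all loci with a control peak 62.3%), in clone 1 alone for 5 and in clone 2 alone for 2. It was found in neither for 10 (22.2%, interval 11.2 to 37.1; all such loci 20.7%). The shares were near those over all loci. For EPHA1, EPHA6, EFNA1, SEMA4B, SEMA4C, PLXNA3 and PLXNB1 among the 28, the strongest peak lay at the start site of another gene alone. The same held for EFNB3, found in clone 1 alone, and for EFNA2 among the 10. SEMA4B and PLXNB1 thus count among the 28, although their start-site peaks of 8.29 and 6.83 were absent in both clones. The 10 were EPHA2, SEMA5B, EPHB2, EFNA2, SEMA4D, PLXNB2 (6.27), EFNA4 (5.91), SEMA4A (5.37), SEMA7A and PLXNB3. PLXNB2 is a receptor of class 4 semaphorins, and SEMA4A acts on immune cells. At SEMA7A 2 control peaks tied at 5.15, and the one at the start site was found in clone 1. At PLXNB3 clone 2 listed a separate peak of 8.41 about 2.20 kb downstream of the start. EPHA2, SEMA5B and EPHB2 excepted, the strongest peaks of these loci scored under 8.

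Peaks in the clones without a control counterpart were fewer, and the control list is the longest of the 3. With each list held to its 34572 strongest peaks, 40.7% of clone 1 member peaks were absent in the control list (all peaks 37.4%). In the other direction, 42.4% of control member peaks were absent in clone 1 (all peaks 38.1%). For clone 2 the shares were 25.0% (all peaks 23.3%) and 27.2% (all peaks 31.5%). With the full lists, 46 of 139 clone 1 member peaks were absent in the control list (33.1%, interval 25.4 to 41.6; all peaks 30.7%, all protein-coding loci 26.2%). Their median score was 5.49 and their highest 8.68. In clone 2, 20 of 132 were (15.2%, interval 9.51 to 22.4; all peaks 11.1%, all protein-coding loci 7.95%), with a median of 9.54 and a highest of 17.3. The clone 2 value over all protein-coding loci lay below that interval. Of member peaks with a score read as a mean over calls, 2 of 36 in clone 1 were absent in the control list (5.56%, all such peaks 5.12%). In clone 2, 4 of 51 were (7.84%, all such peaks 4.26%). Neither PLXNA1 start-site peak had such a score. By family, semaphorins held 16 of the 20 in clone 2 (16 of 64 peaks, 25.0%, interval 15.0 to 37.4), and Eph receptors held 0 of 33, which allows up to 10.6%. In clone 1 Eph receptors held 18 of the 46 (18 of 42 peaks, 42.9%, interval 27.7 to 59.0), with 7 at EPHB1 and 3 at EPHB2. Semaphorins held 16 (16 of 55, 29.1%, interval 17.6 to 42.9), with 8 at SEMA5A, and PLXNA4 held 5 of the 10 at plexins.

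At 5 places both clones listed a peak and the control list did not. They were the PLXNA1 start site and gene-body peaks of SEMA3A, SEMA3D, SEMA5A and EFNB2. The SEMA3A peak (chr7:84042192-84042601 in clone 2) scored 8.68 in clone 1 and 14.1 in clone 2. The SEMA3D peak (chr7:85104482-85104707 in clone 2) scored 6.07 and 17.3. The SEMA5A peak (5.67 and 9.48) and the EFNB2 peak (5.00 and 5.14) were lower. Of the 46 clone 1 peaks, 5 were found in clone 2 (10.9%, interval 3.62 to 23.6), where 4.85% over all peaks were.

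SEMA3A, SEMA3C, SEMA3D and SEMA3E, secreted ligands that lie near each other on chromosome 7, held 12 control peaks, 10 clone 1 peaks and 19 clone 2 peaks. They held 10 of the 20 clone 2 member peaks that the control list lacked and 4 of the 46 in clone 1. SEMA3A, which repels axons through neuropilin-1 and plexin-A receptors, had 2, 5 and 7 peaks in the control, clone 1 and clone 2 lists, and SEMA3D had 3, 2 and 6. SEMA3C had 3, 1 and 2, and SEMA3E had 4, 2 and 4. SEMA3A and SEMA3D thus had more peaks in clone 2 than in the control, although the whole clone 2 list is the shortest of the 3. Clone 2 peaks are narrower (median 200 bp, control 399 bp), so such counts are not counts of separate open regions. At SEMA3D, a single clone 1 peak of 8.63 overlapped several control peaks and several clone 2 peaks.

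The stretch from SEMA3C to SEMA3D with its flanks (chr7:80732538-85260243, 4.53 Mb), chosen after these values were seen, held 31 control, 22 clone 1 and 47 clone 2 peaks. Of its clone 2 peaks, 17 of 47 were absent in the control list (36.2%, interval 22.7 to 51.5), against 13.9% on the whole of chromosome 7 and 11.1% of the whole list. Of its clone 1 peaks, 5 of 22 were (22.7%, interval 7.82 to 45.4; chromosome 7 36.4%). Of its control peaks, 5 of 31 were absent in both clones (16.1%, interval 5.45 to 33.7; chromosome 7 44.1%). The 17 clone 2 peaks include the 10 of the 4 SEMA3 loci, whose values were seen first. The 36.2% and its interval are therefore not independent of the choice of the stretch. That share cannot be told apart from the batch of clone 2, and copy number was not measured here. The 8 members on chromosome 7 together held 27, 23 and 26 peaks.

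Promoter windows of 300 bp were available for 47 of the 52 members and 15812 of all genes, taken at the most distal start site that the promoter table lists. For some members, such as PLXNA4 and SEMA3D, that site lies inside the gene, and a peak may lie at another start site than the window. Members with a start-site peak in all 3 lists had a median of 19 CpG dinucleotides in the window (n = 17; all such genes 26), those with one in 1 or 2 lists had 21.5 (n = 16; all such genes 25), and those with none had 28 (n = 14; all such genes 6). Members without a start-site peak thus included CpG-rich promoters, such as PLXND1 (52 CpG), PLXNA3 (51), EPHA8 (51), EFNA2 (47) and SEMA3F (44). SEMA3G and SEMA4A, with 8 each, had the fewest among them. The windows of SEMA3C (2) and EPHB6 (3) were poorer in CpG, and the start-site peaks of these genes lay at another start site.

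**Figure D5:**
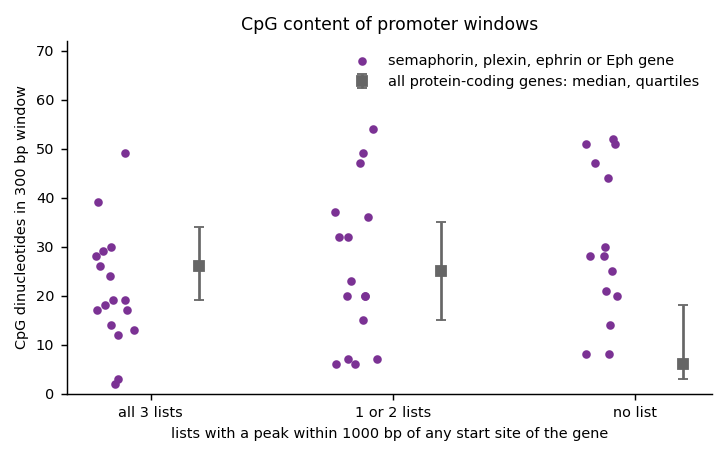
CpG dinucleotides in the 300 bp promoter window, for the 47 members with a window (purple points) and for all protein-coding genes (grey squares, medians with quartiles), by how many of the 3 lists hold a peak within 1000 bp of any start site of the gene. The 14 members in the group with no list reach 52 CpG with a median of 28, and the median over all such genes is 6.

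A GC box (GGGCGG, either strand) was present in the window of 39 of 47 members (83.0%; all windows 58.3%), and in 12 of the 14 members without a start-site peak (85.7%; all such windows 35.1%). A CCAAT box (CCAAT, either strand) was in 38.3% (all windows 36.4%) and an E-box (CACGTG) in 8.51% (all windows 8.82%). The AP-1 letters TGANTCA were in 0 of 47 member windows (all windows 5.70%). A TATA box (TATAAA, either strand) was in 1 member window, that of EFNB2 (all windows 9.75%). Each motif was counted on its own, matches of different motifs may overlap, and a match is a description of the sequence.

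Genes that act with the guidance families were read the same way. Of 31 co-receptor and semaphorin signalling genes, 27 had a control start-site peak, 16 had one in all 3 lists and 4 in the control list alone. Among the 4 were DPYSL4 (6.49) and DPYSL5 (7.09), cytosolic collapsin response mediators, and CFL1 (5.56), the actin-severing protein cofilin. NRP1, the neuropilin that SEMA3A binds, had 7.02 in the control list, 6.17 in clone 1 and none in clone 2. NRP2 had 10.1 in the control list, none in clone 1 and 13.2 in clone 2. The MET receptor, which couples to plexin-B1, had 16.1, 14.1 and 22.0. The neuropilin genes thus each lacked a start-site peak in 1 clone, and not in the same clone.

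Of 28 Eph and ephrin signalling genes, 24 had a control start-site peak, 19 had one in all 3 lists and 3 had none in either clone. The 3 were VAV2 (5.51), a guanine nucleotide exchange factor, CHN2 (7.23), a Rac GTPase-activating protein, and ANKS1A (6.17), an adaptor of Eph receptors. Of 24 other guidance cues and receptors, 16 had a control start-site peak, 10 had one in all 3 lists and 2, the netrin-G genes NTNG1 (8.62) and NTNG2 (5.66), had none in either clone. The shares absent in both clones were 14.8%, 12.5% and 12.5% of the genes with a control start-site peak in the 3 lists, beside 24.2% for the 52 members and 15.0% for all genes. No gene of these 3 lists had a start-site peak in both clones and none in the control list.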

How the data were processed

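ATAC-seq peaks of 8 MDA-MB-436 samples were analysed. The 6 B16F10 mouse melanoma samples of the study were not analysed here. The submitters' processing notes name HISAT2, MACS2, ChIPseeker and hg38, without versions or settings. The authors deposited 1 peak list per group with the replicates merged, each peak with a position and a score that was read as a -log10 p-value. No label states that unit: some frequent scores matched -log10 Poisson tail probabilities at successive whole pileups within 1.4e-05. Scores with more digits than a single call carries were read as means over calls.

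Members were found by symbol in the RefSeq table (GRCh38.p14, 19974 protein-coding genes), and start sites came from its promoter table. A peak was found in another list at an overlap of 1 bp or more. Score ranges began at 5, 6, 8 and 12. Peaks were counted with Python 3.11.15, numpy 2.4.6 and scipy 1.17.1, and the overlap code was checked on simulated data. With 1 list per group no test was made. Precision is limited by the number of peaks and by unknown read depth.

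The members, gene lists and comparisons were chosen with earlier results of these data known. Members were named for a start-site peak absent in both clones, listed in both clones alone, or absent in 1 clone with a control score above the list's median. Further named members were the 5 with the most control peaks, the 3 highest and 3 lowest in share found among those with at least 8, and those whose strongest control peak was absent in both. Start-site values of the other members complete the account. Alternatives changed the overlap, score threshold, list length, locus, allowed gap and start-site window. The fourth co-receptor and semaphorin signalling gene with a start-site peak in the control list alone is not reported here.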

Additional observations from a re-analysis of the deposited data

How the results depend on the processing

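Of 59 alternative values, 47 stayed within the counting interval of the reported share or within 1.5 times the reported count, and 12 did not. With only peaks scoring above the median of their list, 37.3% of member control peaks were absent in clone 1 (all peaks 32.0%), 24.6% in clone 2 (29.0%) and 22.0% in both (19.0%), and 11.7% of clone 1 peaks (11.6%) and 9.23% of clone 2 peaks (4.92%) were absent in the control list. With each list held to its 34572 strongest peaks, the shares absent were 42.4% in clone 1 (all peaks 38.1%), 27.2% in clone 2 (31.5%) and 23.2% in both (22.4%). Under the same setting 25.0% of clone 2 peaks were absent in the control list (23.3%), and 5 of 23 members with a control start-site peak, instead of 8 of 33, had none in either clone (all genes 8.84%, instead of 15.0%). When a clone peak had to cover 50% of the control peak, 85.7% were absent in clone 2 (all peaks 87.2%) and 57.0% in both (58.4%), and clone 2 peaks are the narrowest of the 3 lists. The other settings (overlap of 50% of the shorter peak, gene body alone, 50 kb on each side, a gap of 500 bp, windows of 500 and 3000 bp, and each family without its 2 members with the most control peaks) moved no value past those limits. For ephrins the second of these members was the read-through EFNA4-EFNA3, so that setting left out the peaks of EFNA5 alone. No paired analysis was possible because the replicates of each group were merged into 1 list and no result comes from a test, and for the same reason no replicate could be left out.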
